A study of Ascaridia galli and Trichostrongylus colubriformis with 4 samples.

Results

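The proteasome subunits of 2 parasitic nematodes were examined: 61 unigenes (assembled transcripts) of 150798 in *Ascaridia galli*, a large roundworm of chickens, and 22 of 43810 in *Trichostrongylus colubriformis*, a hair-like gut worm of sheep. Members were the unigenes whose protein name contains "proteasome subunit", "26S proteasome", "26S protease" or "proteasome regulatory", which leaves out activators, assembly factors and the bacterial-type HslUV protease. Whole worms were taken from hosts at slaughter and kept in vitro in a water extract of the moss *Pottia lanceolata* or, as controls, in double distilled water. Each worm had 1 library of poly(A) RNA per condition, 4 in all, and the labels do not give the worms' sex or age, whether worms were pooled for RNA, or which extract concentration those worms received. The values of each worm stand under condition B and condition A, and nothing in the labels or headers says which of them is extract. Every ratio is therefore condition B over condition A within 1 worm, and the letters cannot be matched between worms.

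The proteasome is the protease that destroys proteins marked with ubiquitin, in the cytosol and nucleus of every eukaryotic cell. Its core particle is a barrel: outer rings of alpha subunits form the gate, and inner rings of beta subunits carry the cutting sites. A regulatory particle sits on the barrel's end. Its base holds a ring of ATPases that unfold substrates and push them through the gate, together with large scaffold subunits. Its lid holds non-ATPase subunits, among them the enzyme that removes ubiquitin chains. In nematodes, as in other animals, proteasome subunit genes are known to be raised together when the proteasome is blocked, in *Caenorhabditis elegans* through the transcription factor SKN-1A.

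The deposited normalized counts stood for 69118994 reads in condition B and 87659967 in condition A of *A. galli*, and for 91812201 and 91182265 reads in conditions B and A of *T. colubriformis*. Scaling each library to its total in place of the deposited scaling adds 0.38 to every log2 ratio of *A. galli* and 1.99 to every one of *T. colubriformis*, before the pseudocount of 1. With 1 library per condition there is no replicate spread and no test. Ratios are given with 95% counting intervals, which cover counting error only, and unigenes 4-fold or more apart are counted as a description where the larger of their values was 20 normalized counts or more; such unigenes are called tested. Hits were to close relatives: 59 of the 61 *A. galli* members matched an ascaridid protein (41 *Ascaris suum*, 13 *Toxocara canis*, 5 *Anisakis simplex*), and all 22 *T. colubriformis* members matched a strongylid.

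Nearly all proteasome unigenes of *A. galli* were lower in condition B at the deposited scaling. Of the 61, 56 had a negative and 5 a positive log2 ratio, with a median of -0.74 (interquartile range -1.31 to -0.52; median -0.35 under total scaling). Over 51840 annotated unigenes whose mean was 10 normalized counts or more the median was -0.25, but over the 7142 whose mean was 1000 or more, where 45 of the 61 members lie, it was -0.63. The 45 members with such a mean had a median of -0.68. Of every 1000000 reads, all members together took 2841 in condition B (2824 to 2859) and 3382 in condition A (3365 to 3399). No member was 4-fold or more higher in condition B, and 7 of 60 tested (11.7%) were lower by 4-fold or more, against 22.7% and 9.76% of 114411 unigenes. Under total scaling 0 were higher and 2 lower, against 29.0% and 5.74% of 117937 unigenes. The members' share of lower unigenes is thus near the background. Their share of higher ones was 0, but 22.7% is not a like background for them. Among annotated unigenes most of the higher ones had hits outside the ascaridids, and only 2 of the 61 members had such hits. Shares differed with the matched species: of 26453 tested unigenes with ascaridid hits 781 were higher and 2038 lower, and of 22045 with other hits 7768 were higher and 1139 lower.

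In the outer ring of the core, all 6 alpha subunits that could be told apart by their best hit were lower in condition B at the deposited scaling, with ratios of their most counted unigene between -1.07 and -0.20. The unigene with a *T. canis* hit named pas-1, a subunit of the alpha ring, had 17189.7 normalized counts in condition B and 19783 in condition A, a log2 ratio of -0.20 (interval -0.24 to -0.16) that becomes 0.18 under total scaling. The alpha subunit matched to a 253-residue *A. simplex* protein had 6973 in condition B and 10908 in condition A (-0.65). A 250-residue hit stood for 4249 and 6289 (-0.57), and the principal unigene of a 257-residue hit for 2213 and 3152 (-0.51). A pair of unigenes with the same 233-residue hit went opposite ways: 2423 in condition B and 4935 in condition A for the first (-1.03), against 2877 and 2460.1 for the second (0.23). Summed, they were at -0.48, inside the range of the other alpha subunits. Pairs like this one, with the same hit and nearly the same identity, may be alleles, isoforms or close paralogs, and the authors' counting could split reads between them. The lowest alpha ratios, -1.07 and -1.31, came from a pair named alpha type-1 whose identity to the *A. suum* hit was 39.5% and 39.3% over 30.8% and 30.6% of its length.

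The beta subunits were the most even class, with all 9 unigenes between -0.97 and -0.46 and a median of -0.74 (-0.35 under total scaling). Beta type-5, which bears the chymotrypsin-like site, had 2546 and 2388 normalized counts in condition B in its unigene pair, and 4358 and 4432 in condition A. Both unigenes were lower in condition B, at -0.78 and -0.89. Beta type-7, which bears the trypsin-like site, had 2129 and 2006 in condition B, against 2947 and 3047 in condition A, with ratios of -0.47 and -0.60. These 4 ratios stayed negative under total scaling, where the nearest to 0 was -0.09. A beta subunit with a 240-residue hit had 5453 in condition B and 9342 in condition A (-0.78), one with a 253-residue hit had 3599 and 5991 (-0.74), one with a 229-residue hit had 2872 and 4249.8 (-0.57), and the unigene with a hit in *Gongylonema pulchrum*, a spirurid worm, had 2685 and 5266 (-0.97).

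All 6 ATPases of the base were found, and the ratios of their most counted unigenes ran from -1.43 to -0.48. Regulatory subunit 7 had 6612 and 6891 normalized counts in condition B in its pair of unigenes, and 9253 and 8784 in condition A. Their ratios were -0.48 and -0.35, the second 0.03 under total scaling. Regulatory subunit 4, which takes part in opening the gate of the core, had 8918 in condition B and 12994 in condition A in its principal unigene (-0.54). Subunit 6A had 5846 and 8807 (-0.59), subunit 8 had 5456 and 8617 (-0.66), and subunit 6B had 2147 and 3536 (-0.72). Subunit 10B was split. One of its unigenes had 2429.9 in condition B and 6529 in condition A (-1.43), and the other, at the same 95.8% identity to the same hit, had 4102 and 3705 (0.15). Their sum gave -0.65, again among the other ATPases. For both split pairs, alpha and 10B, the summed value lay closer to the rest of the particle than either unigene did.

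Among the principal unigenes of non-ATPase subunits the 2 large scaffolds and a chaperone were lowest. Non-ATPase subunit 1 had 4717 normalized counts in condition B and 9875 in condition A (-1.07, interval -1.14 to -1.0), and non-ATPase subunit 2 had 5969 and 12214 (-1.03, -1.10 to -0.97). Both are scaffolds of the base, and subunit 2 also docks proteins that deliver ubiquitinated substrates. Non-ATPase subunit 5, a chaperone that helps assemble the base and leaves before the particle is complete, had 3289.8 in condition B and 7139.8 in condition A (-1.12, -1.20 to -1.03). The counting intervals of these 3 lie apart from that of non-ATPase subunit 7, a structural partner of the deubiquitinating enzyme, which had 14364 and 23030 (-0.68, -0.72 to -0.64). The lid subunits 3, 12 and 13 lay close to it, with principal ratios of -0.67, -0.67 and -0.69. Lid subunit 6 was at -0.84 (interval -0.93 to -0.74) and lid subunit 8 at -0.41 (interval -0.50 to -0.33; ratio -0.03 under total scaling). Their intervals also lay apart from that of subunit 7. The principal unigene of non-ATPase subunit 4, a receptor for ubiquitin chains, had 12824 in condition B and 14302 in condition A, and that of dss-1, a small acidic lid protein, had 9256 and 10351. Both stood at -0.16, which becomes 0.23 and 0.22 under total scaling, and their intervals too lay apart from that of subunit 7. A 38-residue match to rpn-6.2, a paralog of rpn-6.1 in *C. elegans*, had 33.5 in condition B and 19.3 in condition A (0.77, interval -0.43 to 2.12).

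**Figure D1:**
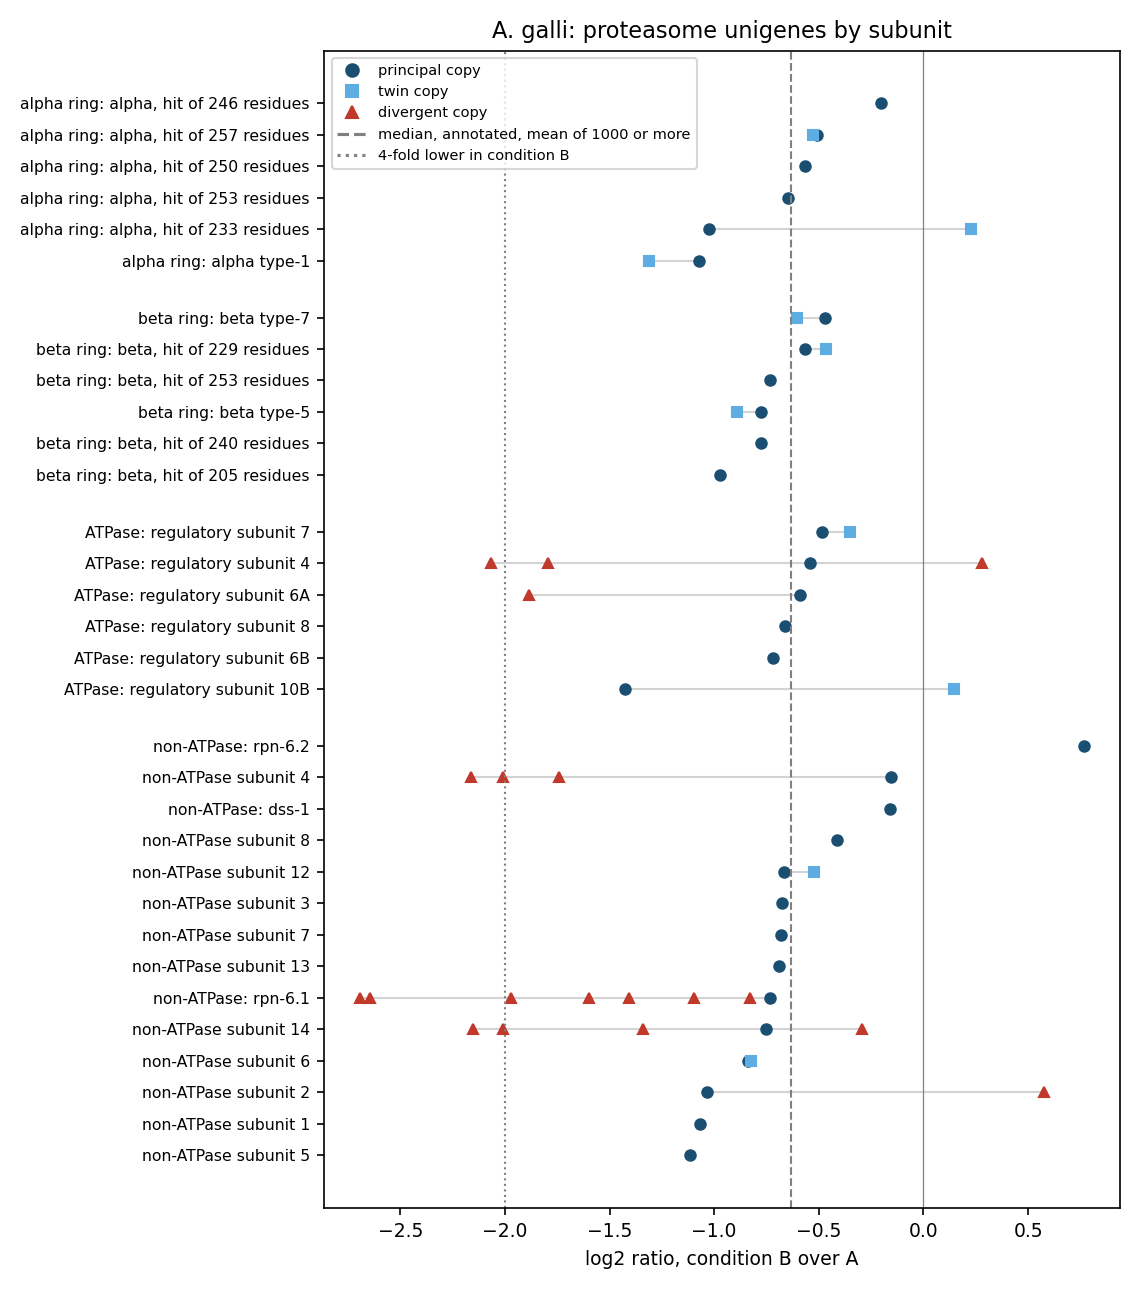
Log2 ratio (condition B over condition A, deposited scaling) of each of the 61 *A. galli* proteasome unigenes, 1 row per subunit and grouped by ring or class; circles are the most counted unigene of a subunit, squares near-identical twins, triangles divergent copies, the dashed line the median (-0.63) of annotated unigenes whose mean was 1000 normalized counts or more and the dotted line 4-fold lower. Most circles sit near the dashed line, and the triangles of non-ATPase subunits 4 and 14, rpn-6.1 and regulatory subunit 4 reach past the dotted line.

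Several regulatory subunits had more than 1 unigene, and these copies differed in both sequence and ratio. For each subunit the unigene with the highest mean count, not corrected for length, was called principal. Copies with the same hit and an identity within 2 percentage points of it were called twins, and all others divergent. The split was made after the values were seen and is a description only. It gave 32 principal unigenes (median -0.68), 10 twins (-0.52) and 19 divergent copies (-1.80). The divergent copies belonged to 6 regulatory subunits and to no core subunit. Alpha and beta unigenes without a subunit number were grouped by best hit, so a copy with another hit could not be called divergent there. The lack of divergent copies in the core thus follows in part from the rule. The divergent copies had a median identity of 63.0% to their hits, against 84.6% for the principal unigenes. Together they held 5114 normalized counts in condition B and 17392 in condition A. Only 4 of the 19 covered 90% or more of their hit, against 23 of the 32 principal unigenes, so that paralogs and partly assembled transcripts cannot be told apart from these files. All 7 members that were 4-fold or more lower in condition B were among them, though each had a counting interval that reached inside 4-fold, and 16 of the 19 remained negative under total scaling, where the median was -1.41 and 2 were 4-fold lower.

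Non-ATPase subunit 4, the ubiquitin receptor, showed this most clearly. Beside its principal unigene at 63.4% identity stood 3 copies at 44.8% to 48.5% identity to the same *A. suum* protein. They had 407, 418 and 478 normalized counts in condition B, against 1827, 1685 and 1601 in condition A, with ratios of -2.16 (interval -2.39 to -1.95), -2.01 and -1.74. The principal unigene, at -0.16, did not share that difference. Non-ATPase subunit 14, the deubiquitinating enzyme of the lid, was similar. Its principal unigene, 97.3% identical to *T. canis* rpn-11, had 2320.4 in condition B and 3907 in condition A (-0.75). A pair of full-length copies, 77.4% identical to another *A. suum* protein of the same name, had 414 and 330.4 in condition B, against 1671 and 1471 in condition A (-2.01 and -2.15). A further copy of it, at 81.3%, had 640 and 785, and its ratio of -0.29 becomes 0.09 under total scaling.

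Regulatory subunit 4 had a pair of copies at 81.5% and 81.2% identity, with 872 and 831 normalized counts in condition B and 3656 and 2888 in condition A (-2.07 and -1.80). Its principal unigene, at 95.6%, was at -0.54. The remaining copy had 13.8 in condition B and 11.2 in condition A; its hit, a *Trichinella britovi* fragment at 37.3% identity, carries the gene name of a splicing factor, Srsf4, so its product name and gene name disagree. The lid subunit rpn-6.1, whose level affects proteasome activity and lifespan in *C. elegans*, had 7 divergent copies at 56.0% to 66.2% identity, with 21.7 to 78.9 normalized counts in condition B and 76.1 to 312 in condition A. Their ratios ran from -2.69 (interval -3.54 to -1.99) to -0.83, all negative, and the principal unigene had 2622 in condition B and 4359 in condition A (-0.73). Subunit 6A had a short match of 85 residues at -1.88, and non-ATPase subunit 2 a 48-residue match at 0.57, the highest ratio among the divergent copies.

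Other gene products of the same worm give only a rough scale for these copies. By subunit, the divergent copies lay below their principal unigene in 5 of the 6 subunits, with a median difference of -1.09 in log2 ratio, and 3 of the 6 (50.0%) lay at least 1 lower. Between copies under 1 exact product name, the difference had a median of 0.31 over 3460 other names. Of these, 11.6% lay at least 1 lower. It was 0.35 over the 2606 with ascaridid hits, of which 7.87% did. Variant names of 1 subunit had been joined for the members only, so members and other names are not measured alike. No test was made of the difference between them. Across the 60 members tested, identity to the hit and log2 ratio had a Spearman rho of 0.48 and a Pearson r of 0.48; across 26453 annotated unigenes with ascaridid hits rho was 0.08. These points share 1 pair of libraries, and several share a subunit. Major sperm protein, the marker of nematode sperm, had a median of -1.77 over 159 unigenes in the same libraries (quartiles -2.12 to -1.40), with 52 of 158 tested lower by 4-fold or more and 3 higher by as much; under total scaling the median was -1.38, with 21 lower and 3 higher. Summed, the list held 1523110 normalized counts in condition B and 5077180 in condition A. The part of sperm content in the values of the divergent copies was not tested, and in whole worms fewer cells of a type and less RNA per cell cannot be told apart.

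**Figure D2:**
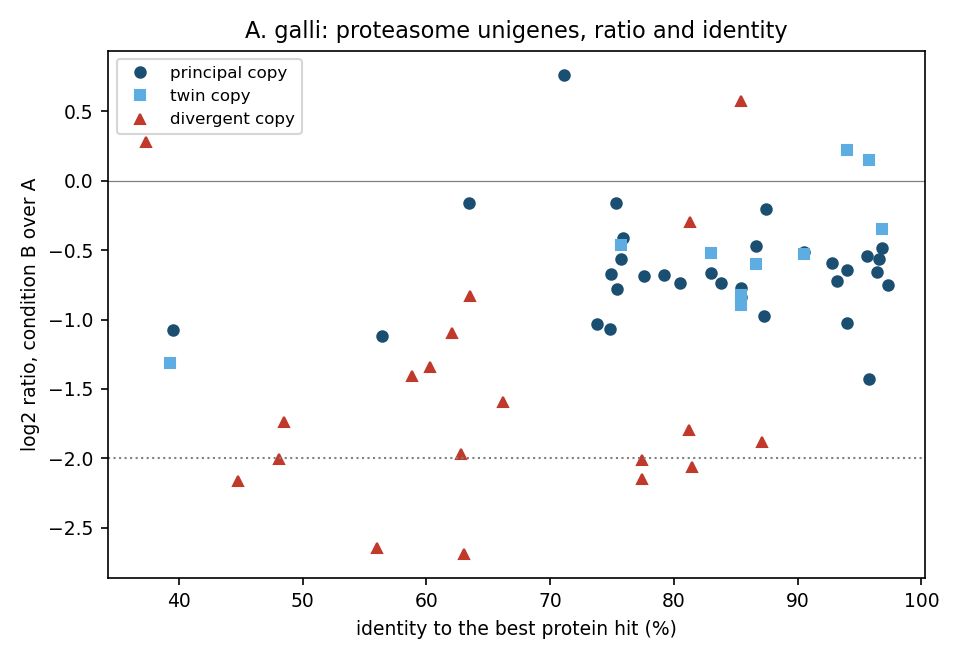
Log2 ratio (condition B over condition A) against percent identity to the best protein hit for the 61 *A. galli* proteasome unigenes, marked as principal, twin or divergent copies, with a dotted line at 4-fold lower. Of the 7 unigenes below the dotted line, 4 have identities from 44.8% to 63.0% and 3 from 77.4% to 81.5%, while the unigenes above 90% lie between -1.43 and 0.23.

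The medians of core and regulatory particle lay close together once the copies were separated by the rule above. Over all unigenes the 18 core members had a median of -0.62 with an interquartile range of 0.35, and the 43 regulatory members a median of -0.83 with an interquartile range of 1.14. With 1 unigene per subunit the medians were -0.69 for 12 core and -0.68 for 20 regulatory subunits, and without the divergent copies -0.62 and -0.67. Without its divergent copies the regulatory particle had an interquartile range of 0.30. The rule took 0 unigenes from the core and kept its alpha type-1 pair at 39.5% and 39.3% identity. The particles were thus not trimmed alike, and their spreads cannot be compared on this basis. Of every 1000000 reads the core took 953 in condition B (943 to 964) and 1070 in condition A (1060 to 1080), and the regulatory particle 1888 (1874 to 1903) and 2312 (2298 to 2327). By class, the medians of all unigenes were -0.57 for alpha, -0.74 for beta, -0.63 for ATPase and -0.84 for non-ATPase subunits. Counts summed per best hit had an interquartile range of 0.32 over 37 proteasome hits, against 1.6 over 22956 annotated hits of all abundances. Among unigenes with a mean of 1000 or more the range was 0.45 over 45 members and 0.70 over 7142 annotated ones. In the authors' deposited table the lowest p-value among the 61 members was 0.0857, for a divergent copy of non-ATPase subunit 4.

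**Figure D3:**
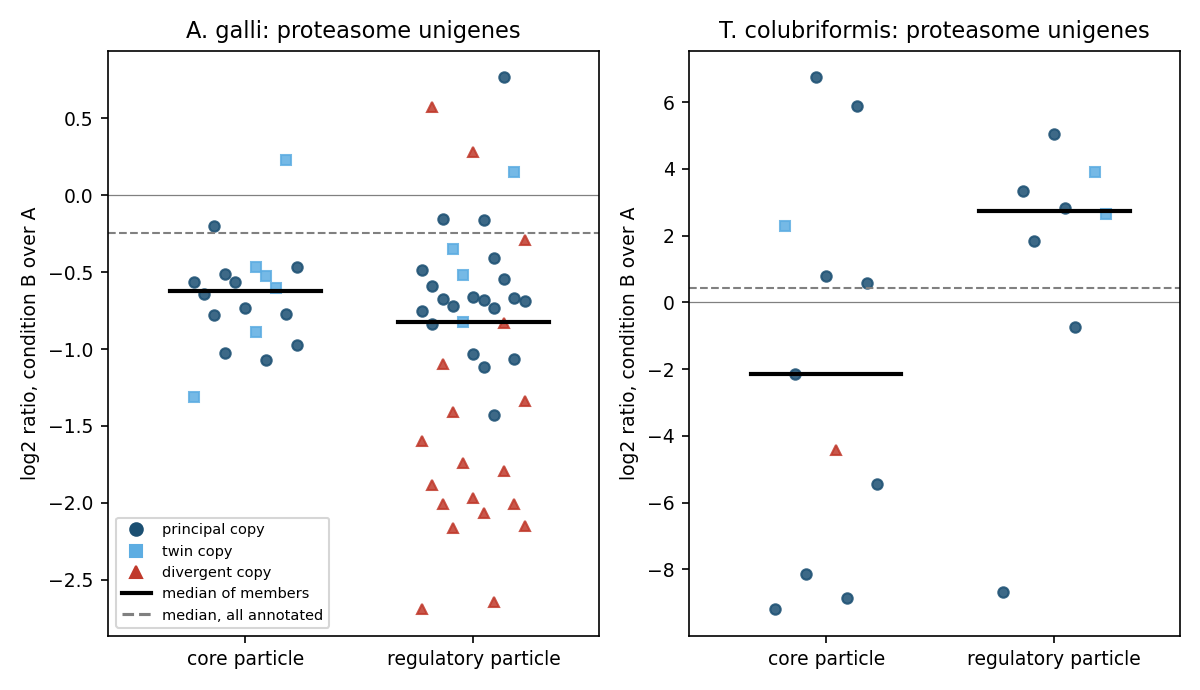
Log2 ratio (condition B over condition A) of the core and regulatory members whose mean was 10 normalized counts or more, *A. galli* on the left and *T. colubriformis* on the right, with different vertical scales; black bars are medians and the dashed line is the median of annotated unigenes. In *A. galli* both bars lie between -0.83 and -0.62, and in *T. colubriformis* the core members run from -9.19 to 6.74 on either side of 0.

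Genes that work with the proteasome in *A. galli* lay near it, apart from a few groups. The median over all 27394 annotated unigenes with ascaridid hits and a mean of 10 or more was also near, at -0.58. Ubiquitin and ubiquitin-like modifiers had a median of -0.79 over 19 unigenes, with 1 past 4-fold on the higher side of condition B and 0 on the lower. The most counted of them, Polyubiquitin-A, a precursor that is cut into ubiquitin units, had 257530 normalized counts in condition B and 429373 in condition A (-0.74). Conjugating enzymes (E2) had a median of -0.78 over 52 unigenes with 0 past 4-fold either way. Ligases (E3), which choose the substrates, had -0.50 over 256, with 3 of 246 tested higher and 10 lower, which turned to 5 higher and 3 lower under total scaling (-0.12). Deubiquitinases were at -0.53 over 100 with 1 higher and 0 lower. Shuttle factors, which carry ubiquitinated proteins to the proteasome, were at -0.67 over 6, and the most counted, RAD23, had 3265 in condition B and 7294 in condition A (-1.16). None of the 6 was 4-fold apart. Activating enzymes (E1), which start the ubiquitin cascade, were at -0.22 over 17 (0.16 under total scaling), and Cdc48/p97, the unfolding ATPase upstream of the proteasome, with its cofactors at -0.16 over 14 (0.22). Neither list had a unigene past 4-fold.

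Activators and assembly factors had a median of -0.80 over 22 unigenes, and none was 4-fold apart. Of these, proteasome activator complex subunit 4, which caps the core in place of the regulatory particle and in mammals is abundant in testis, had 3079 normalized counts in condition B and 6642 in condition A in its most counted unigene (-1.11). Of its 15 unigenes 13 were negative under either scaling, down to -1.69, and 2 positive, at 1.43 and 1.52. Of 2 complexes whose subunits share an architecture with the lid, eIF3, a translation initiation complex, was at -0.58 over 25 unigenes, with 2 higher and 0 lower, and the COP9 signalosome, which removes the modifier NEDD8 from cullin ligases, at -0.02 over 6 (0.36 under total scaling) with none past 4-fold. The chaperonin TCP-1, another ring complex, was at -0.37 over 7 (0.01) with none past 4-fold, and ribosomal proteins were at -0.54 over 130, with 11 of 122 tested higher and 3 lower. With ascaridid hits alone, 1 of 94 tested ribosomal unigenes was higher and 0 lower, and 0 of 18 tested eIF3 unigenes were past 4-fold. The bacterial-type proteases HslV, ClpP and Lon stood apart at 2.25 over 33 unigenes, with 18 of 30 tested higher and 0 lower, but the 6 with ascaridid hits had a median of -1.14. No unigene was named SKN-1, Nrf or PNG-1.

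**Figure D4:**
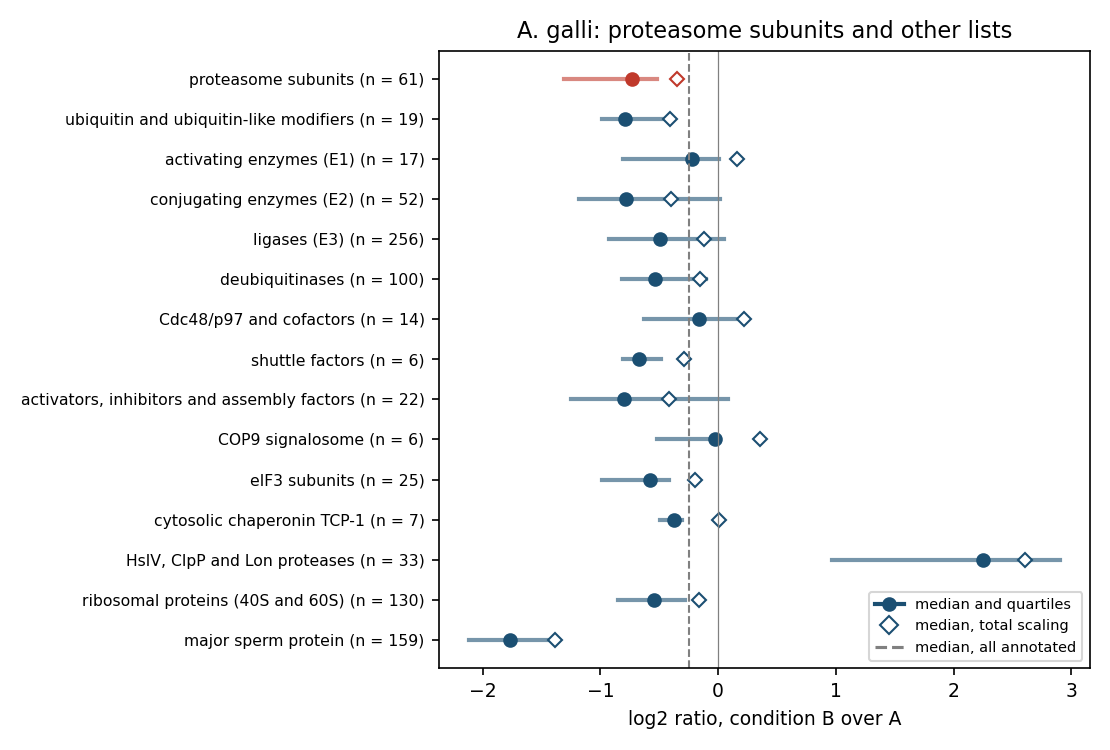
Median log2 ratio (condition B over condition A) with quartiles for the *A. galli* proteasome subunits and 14 other lists, with open diamonds for the median under total scaling and a dashed line for the median of annotated unigenes (-0.25). The proteasome at -0.74 stands with modifiers, E2 enzymes and activators, above major sperm protein at -1.77 and below the bacterial-type proteases at 2.25. Annotated unigenes with ascaridid hits alone had a median of -0.58.

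In *T. colubriformis* the proteasome unigenes lay far apart in both directions. Of 22 members, 13 core and 9 regulatory, 19 had counts enough to be tested. Among these, 8 (42.1%) were higher in condition B by 4-fold or more and 7 (36.8%) lower by as much, against 39.7% and 41.6% of 37391 unigenes. Under total scaling 11 were higher and 6 lower, against 55.7% and 28.1% of 36558. Neither share stands out from the background. The median was 0.78 (interquartile range -4.92 to 3.09; 2.73 under total scaling), and -0.88 with a minimum mean of 100, so no common direction can be given. In the authors' deposited table the lowest p-value among the 22 was 0.5.

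The alpha subunits of *T. colubriformis* held both the highest and the lowest ratios. A unigene with a 250-residue hit had 534.5 normalized counts in condition B and 4 in condition A (6.74, interval 4.58 to 12.37). In contrast, a 98.3% match to an alpha subunit of *Ancylostoma ceylanicum* had 17 in condition B and 10484 in condition A (-9.19, -10.05 to -8.59), and a full-length match to *Heligmosomoides polygyrus* had 7 and 3668 (-8.84). A single unigene dominated the counts: with a 93-residue match at 62.4% identity, it had 83594 in condition B and 1420 in condition A (5.88, 5.73 to 6.03). It held 94.0% of the normalized counts of all members in condition B. With it, the members summed to 88957 in condition B and 26392 in condition A (1.75), and without it to 5363 and 24972, a log2 ratio of -2.22 (-0.23 under total scaling). Another unigene with the same hit, at 57.6% identity, had 27 in condition B and 594 in condition A (-4.41).

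Unigenes of 1 subunit also split in the beta ring and in the regulatory particle. A beta subunit with a 205-residue *Necator americanus* hit had 4 normalized counts in condition B and 1412 in condition A in its first unigene (-8.14), and 43 and 8 in its second (2.29). A beta subunit with a full-length *Angiostrongylus costaricensis* hit had 5 in condition B and 258 in condition A (-5.43), and the other beta unigenes had 69.5 and 1 in condition B, against 40 and 10 in condition A. Non-ATPase subunit 5, the assembly chaperone, had 19 in condition B and 8120 in condition A in a unigene at 75.8% identity (-8.67, -9.47 to -8.09). Its twin at 73.9% had 194.5 and 12 (3.91, 2.45 to 6.31). Of the 4 best hits with at least 2 tested unigenes, 3 (75%) had unigenes past 4-fold in opposite directions, and the median range within a hit was 10.36 on the log2 scale. Over 3527 such hits of the whole table, 44.9% did so, with a median range of 6.63. In *A. galli* the median range was 0.25 over 16 proteasome hits, against 1.04 over 10929 hits. None of the 16 was opposite, but only 1.63% of the 10929 were.

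The ATPases of *T. colubriformis* were the only class of more than 1 tested unigene without a split. Regulatory subunit 8 had 2918.5 normalized counts in condition B and 88 in condition A (5.04, interval 4.45 to 5.73), and its twin had 205 and 32 (2.64). Another unigene had 1 and 16, below the minimum. The P45-family ATPases had 1144.5 in condition B and 112 in condition A (3.34) and 46 and 12 (1.85). A regulatory fragment with no subunit number had 63 and 8 (2.83). By particle, 3 of 11 core members were higher in condition B by 4-fold or more and 6 lower, with a median of -2.16, but 5 each way under total scaling (-0.26). Of 8 regulatory members 5 were higher and 1 lower, with a median of 2.74, and 6 and 1 under total scaling (4.62). The background for these counts is 39.7% higher and 41.6% lower at the deposited scaling. These tested members came from 9 core and 6 regulatory best hits or names, and the median range within a hit, 10.36, was larger than the difference of 4.89 between the particles, so the medians describe these few unigenes only.

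**Figure D5:**
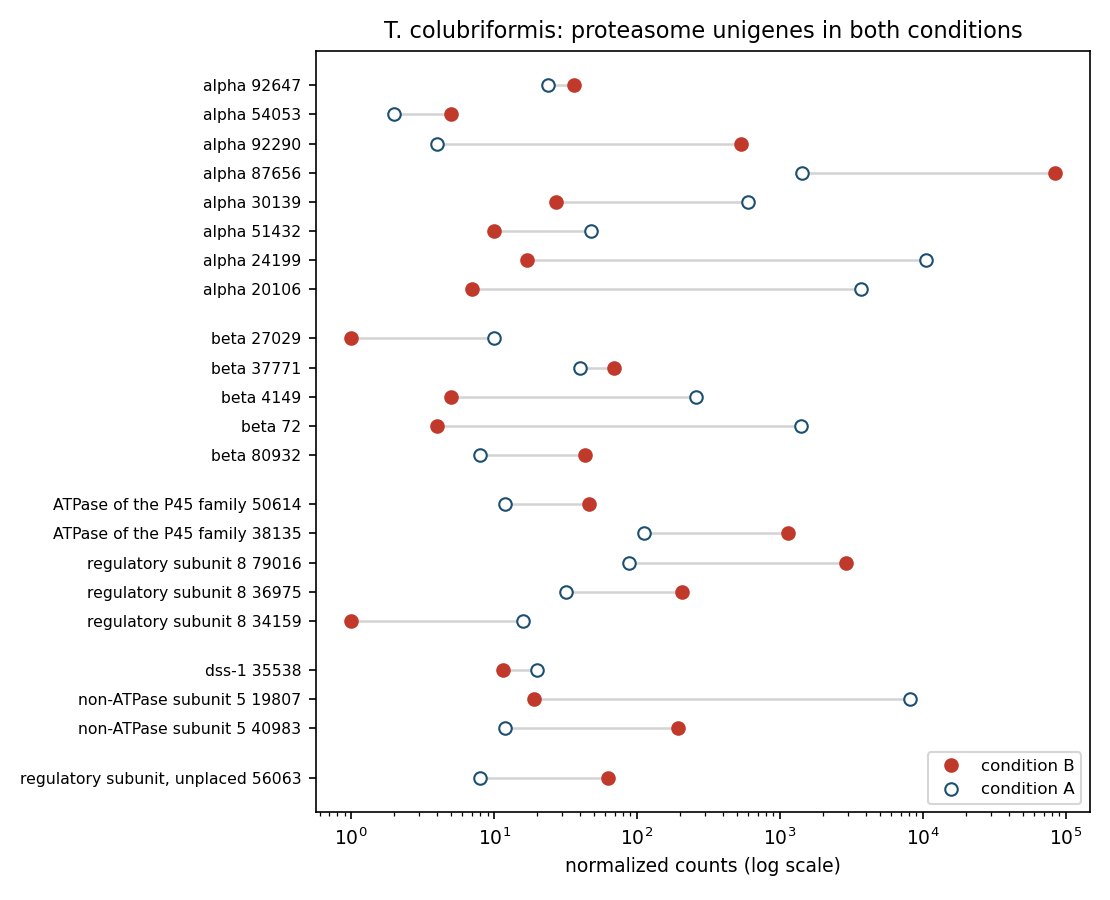
Normalized counts (log scale) of each *T. colubriformis* proteasome unigene in condition B (filled) and condition A (open), grouped by class and labelled by subunit and unigene number. Lines of opposite direction stand within the alpha and beta rings and within non-ATPase subunit 5, and alpha unigene 87656 reaches 83594 in condition B.

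The other ubiquitin pathway genes of *T. colubriformis* also lay far apart, and their counts depended on the scaling. Ubiquitin and ubiquitin-like modifiers had 2 of 11 higher and 8 lower (median -3.0), and 3 and 5 under total scaling (-1.01). Ligases had 18 of 42 tested higher and 13 lower (0.87), and 24 and 6 under total scaling (2.75). Deubiquitinases had 13 of 18 higher and 2 lower (2.85), and 17 and 1 under total scaling (4.56). The most counted deubiquitinase, a ubiquitinyl hydrolase, had 46705 normalized counts in condition B and 36 in condition A (10.30). The activator list held 2 unigenes, both of proteasome activator complex subunit 4, with 473 and 143 in condition B and 146 and 2 in condition A. E1, E2 and shuttle lists held 1 unigene each, at 2.38, 0.61 and 4.26, and the 4 unigenes of Cdc48 and cofactors were 2 higher and 2 lower. eIF3 had 4 of 16 higher and 8 lower (-2.04), and 6 each way under total scaling (-0.09). The chaperonin had 3 of 8 each way (0.91; 4 higher and 3 lower under total scaling), and the HslV, ClpP and Lon list 3 of 7 tested higher and 4 lower (-0.45, with the median at 1.38 under total scaling). Ribosomal proteins had 4 of 24 higher and 13 lower (-2.90), but 11 and 9 under total scaling (-0.91). Major sperm protein had 11 of 24 higher and 5 lower (1.73), and 17 and 3 under total scaling (3.57). The COP9 signalosome and the SKN-1 list had no member.

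Subunits found in both worms under the same name were dss-1, non-ATPase subunit 5 and regulatory subunit 8. For dss-1, *A. galli* had 9256 normalized counts in condition B and 10351 in condition A, and *T. colubriformis* had 11.5 and 20. For non-ATPase subunit 5 the *A. galli* ratio was -1.12, beside -8.67 and 3.91 in *T. colubriformis*. For regulatory subunit 8 it was -0.66, beside 5.04 and 2.64 in the tested unigenes. Since the letters of the conditions may stand for different treatments in each worm, their signs were not compared.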

How the data were processed

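Per the labels' protocols, libraries were made from poly(A) RNA of whole worms. The authors deposited 1 table per worm: per the file headers, its baseMean columns are normalized counts (taken here as a score: reads divided by a size factor), beside a p-value and the percent identity of the best protein hit. The submitters' processing notes name DESeq; no source used here gives its version, the aligner or the assembly. Whole reads were recovered from the step of the deposited values (all values up to 200 whole within 0.1 read, 4 of 4 columns). A stray line of the *A. galli* table was left out.

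Log2((B + 1)/(A + 1)) was computed with Python 3.11.15 and pandas 2.3.3. Unigenes whose larger value was 20 normalized counts or more were set against 4-fold, and medians used a mean of at least 10. Counting intervals are exact (Clopper-Pearson) 95% intervals on reads divided by 2, since most counts were even. The size rule was checked on simulated counts. They held counting error only, with no variation between libraries, so the check does not cover such variation. Alternatives were total scaling, the trimmed mean of M-values, other minimums, pseudocounts and folds, and 1 value per subunit. Members and lists were chosen with earlier results of these data known. Named were, by rule, the most counted unigene of each subunit (some by ratio alone), the 5 largest differences each way past 4-fold and, for some lists, the most counted unigene; other copies were named after their values were seen. No sequence is printed, and the cestodes and reference drug of the labels are not analysed here.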

Additional observations from a re-analysis of the deposited data

How the results depend on the processing

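Of 127 alternative values, 89 kept their direction and lay within a set tolerance of the reported one, 34 moved and 4 reversed. For log2 values the tolerance was the median half-width of a single unigene's counting interval, 0.10 in *A. galli* and a wide 1.35 in *T. colubriformis*. For counts it was 1.5 times. Some of the 89 could hardly change, since a shift of scale cancels in core minus regulatory and some filters removed no member. In *A. galli* total scaling gave -0.35 for all members, -0.18 for alpha, -0.35 for beta, -0.24 for ATPases and -0.45 for non-ATPases, and the trimmed mean of M-values gave -0.60, -0.43, -0.60, -0.49 and -0.70. Core minus regulatory (0.20) became -0.013 with 1 unigene per subunit, 0.072 with summed counts and 0.047 without divergent copies. The 7 lower members became 2 under total scaling, 4 under the trimmed mean, 22 at 2-fold and 5 with a pseudocount of 5. They became 0 where the counting interval had to pass 4-fold (also under total scaling), with 1 unigene per subunit, with summed counts and without divergent copies. Adding members by gene ontology moved the median to -0.58. In *T. colubriformis* total scaling gave 2.73 for all members, -0.26 for alpha, -0.42 for beta, 4.95 for ATPases and 1.12 for non-ATPases (-0.75 as reported). A minimum of 100 gave -0.88 for all, -4.41, -6.79 and -2.38 for alpha, beta and non-ATPases, and -8.77 for core minus regulatory (-4.89 as reported); without a minimum alpha was at -0.79, and without the divergent copy core minus regulatory was -3.52. The 8 higher members became 5 with 1 unigene per subunit, with summed counts and where the interval had to pass 4-fold. Without the alpha unigene with the most reads the summed ratio was -2.22. The cause of these shifts was not tested beyond the counts left out. No paired analysis was possible because each group had 1 library and the columns carry no replicate number; no replicate could be left out.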

Other observations

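Unigenes that gene ontology terms place in a proteasome complex but whose names fall outside the rule numbered 62 in *A. galli* and 27 in *T. colubriformis*. In *A. galli*, 19 of them are annotated to the bacterial-type HslUV protease and all 19 have their best hit in *Steinernema glaseri*, an insect-parasitic nematode. Of these, 10 of 16 tested were higher in condition B by 4-fold or more and 0 lower, with a median log2 ratio of 2.31. Over all annotated unigenes without ascaridid hits, 7768 of 22045 tested were higher and 1139 lower, with a median of 0.98. The other 43 of the 62 had a median of -0.47. Of their 37 tested, 6 were higher and 0 lower, against 22.7% and 9.76% of 114411 unigenes. The 43 were not alike: 14 carry a core complex term, with a median of 2.01 over the 9 whose mean was 10 or more. Of the 9 tested with that term, 5 were higher and 0 lower, unlike the core members chosen by name. In *T. colubriformis* 13 of 24 tested were higher and 5 lower, with a median of 2.22, against 39.7% and 41.6% of 37391 unigenes.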
